A study of Rattus norvegicus with 8 samples.

Results

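The genes described here are 9 components of the cytosolic surveillance system of the macrophage: the inflammasome sensors Nlrp3, Nlrp1a, Nlrc4 and Aim2, the peptidoglycan sensors Nod1 and Nod2, the adaptor Pycard, and the inflammatory caspases Casp1 and Casp4. They were chosen by name, and their probes were all non-control spots of a rat expression array that carried one of those gene names. By gene name, 7 of the 9 genes were found, with 12 probes. Aim2 and Nlrc4 carry a transcript identifier in the gene name field instead, and their 4 probes were found through the transcript accessions and the description of each spot. All 16 probes are used below, and the 9 genes stand among 15290 genes that could be tested.

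NR8383 is a macrophage line that was started from rat lung lavage and whose cells partly attach and partly float. It was compared at passage 20 (P20, 4 arrays) and at passage 200 (P200, 4 arrays), so the comparison asks how its gene expression differs after long culture. The labels name no stimulus for either group, and RNA was taken 48 h after seeding. Both groups are the same line, so the comparison concerns 1 line kept for different numbers of passages and not alveolar macrophages in the lung. The labels call the 4 samples of a group biological replicates without saying whether they came from separately kept stocks, so the p-values measure the spread between these samples.

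An inflammasome is a cytosolic complex in which a sensor, after meeting its trigger, assembles with the adaptor ASC (encoded by Pycard) and activates caspase-1. Caspase-1 matures interleukin-1 beta and interleukin-18 and cleaves gasdermin D, whose pores release the cytokines and can end in pyroptotic death. NOD1 and NOD2 work differently: they bind fragments of bacterial peptidoglycan and, through the kinase RIPK2, activate NF-kB. Alveolar macrophages meet inhaled bacteria and particles first, and many sensor genes of this system are themselves induced by NF-kB or interferon signals.

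Each array held 62976 spots, and 51.02 to 54.47% of its probes were well above background, with no saturated spot. All 8 arrays shared 1 slide and 1 scan. Slide row 1 held P20 replicate 1 with P200 replicates 2, 3 and 4, and slide row 2 held the other 4, so row and passage were unevenly mixed. The P200 replicate numbers used here are those of the scanner files. The deposited value table numbers the same 4 P200 arrays in another order, which leaves group membership as it is. Of 10 macrophage markers, 8 were measured (among them Cd68, Csf1r, Lyz2 and Spi1, well above background on all 8 arrays), while Adgre1 was above background on no array and Marco on 1. Siglec1 and Cd14, 2 of those 8, fell (log2 change -0.56 and -0.91). Lymphocyte (0 of 5) and granulocyte or mast cell markers (0 of 5) were not measurable by the filter used, and 1 of 6 epithelial, 2 of 5 fibroblast and 2 of 4 endothelial markers were. The epithelial one, Cldn18, was well above background on the 4 P20 arrays and on no P200 array. The part of any other cell type in the results below was not tested.

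Across the 15290 genes tested with limma, 906 rose and 864 fell at an adjusted p under 0.05, which is 11.6% called. Among the 9 sensor, adaptor and caspase genes, 2 fell, Aim2 and Nlrc4, none rose, and 7 did not pass the test. For the falling direction the share over all genes was 5.65%. The 7 genes found by gene name gave 0 calls with limma and 0 at an unadjusted p under 0.05, beside 23.7% of all genes at that unadjusted level. The median log2 change was -0.14 over the 9 genes, -0.08 over those 7, and 0.0 over all genes tested. On the probes tested, no gene had all P200 arrays above all P20 arrays, which 9.65% of all genes had, and 2 of the 9, Aim2 and Nlrc4, had the reverse, against 9.81%. At P200 the estimate was below 0 for 7 of the 9, and for 49.1% of all genes. In RNA from a whole culture, fewer cells of a kind and less RNA per cell cannot be told apart.

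Values are log2 signals less the 75th percentile of the same array, so 0 is a signal equal to that percentile and a difference of 1 is a doubling. Levels are compared between arrays for 1 probe. Signals of different probes are set side by side only to choose, where a gene has several, the one with the highest mean signal to stand for it.

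**Figure D1:**
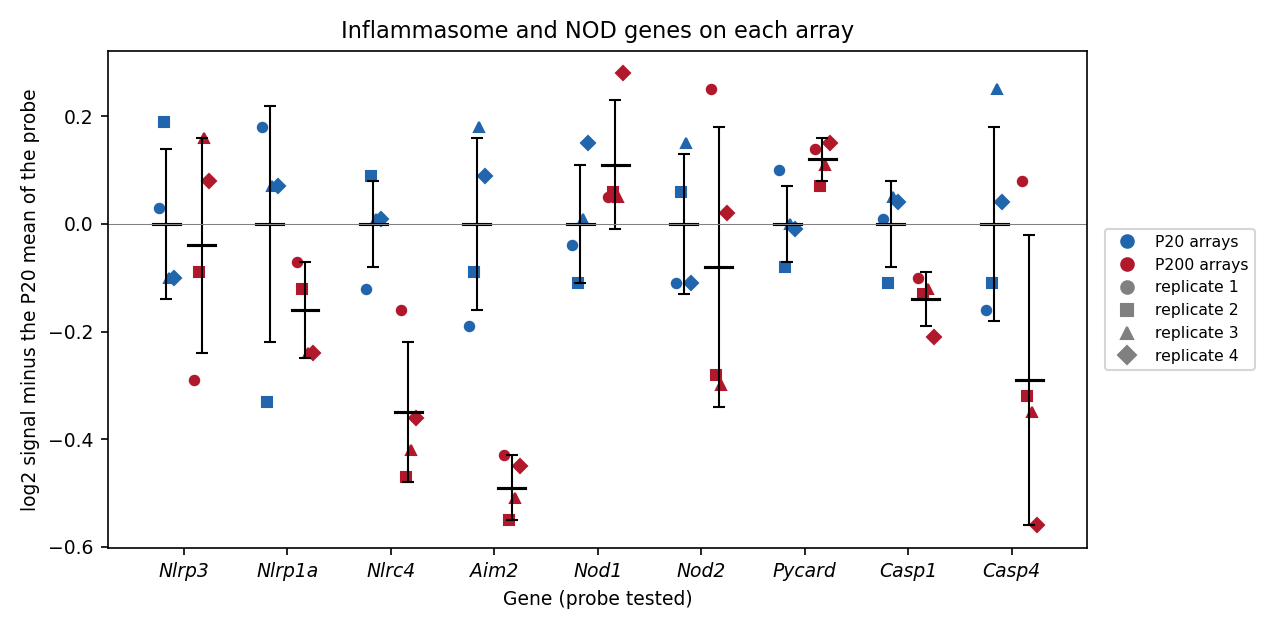
Log2 signal of the probe tested for each gene, less its P20 mean (vertical axis), for the 4 P20 arrays (blue) and 4 P200 arrays (red), with symbols for replicate number. Bars are group means with SD. The P200 arrays lie wholly below the P20 arrays for Nlrc4 and Aim2, and the groups overlap for the other 7 genes.

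Aim2 and Nlrc4 carry the only calls, so the array's probes against them are shown, since the gene name field does not identify them. Each is 60 bases long, on the plus strand, with positions in the rn4 build as the files give them; exons and UTRs of that build were not used here. The Aim2 probes lie on chromosome 13 at 89637428 to 89637487 (probe 1) and 89639512 to 89639571 (probe 2). The Nlrc4 probes lie on chromosome 6 at 20937498 to 20937557 (probe 1) and 20943599 to 20943658 (probe 2). No base is set in capitals, because no part of a probe is singled out.
Aim2 probe 1: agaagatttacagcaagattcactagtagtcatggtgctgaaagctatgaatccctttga
Aim2 probe 2: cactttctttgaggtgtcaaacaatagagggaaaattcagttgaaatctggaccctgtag
Nlrc4 probe 1: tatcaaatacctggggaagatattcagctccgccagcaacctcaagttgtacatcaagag
Nlrc4 probe 2: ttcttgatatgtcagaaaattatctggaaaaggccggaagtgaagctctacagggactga
Their G and C content is 38.3% and 40.0% for Aim2 and 45.0% and 41.7% for Nlrc4. In each pair the 2 probes sample different positions of the same gene, so they give 2 readings of it from the same RNA.

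Aim2 encodes the sensor that binds double-stranded DNA in the cytosol and assembles an inflammasome with ASC. Its probe 2 read -4.77, -4.67, -4.40 and -4.49 in P20 replicates 1 to 4, and -5.01, -5.13, -5.09 and -5.03 in P200 replicates 1 to 4. All P20 arrays were above all P200 arrays. The mean went from -4.58 ± 0.16 to -5.07 ± 0.06 (SD, n = 4 each), a log2 change of -0.48 ± 0.09 (SE; 95% interval -0.68 to -0.28), or 1.40-fold lower, with a limma adjusted p of 0.00828. With slide row as a block the change was -0.40 and the adjusted p 0.0357. Within row 1 the difference was -0.32 and within row 2 it was -0.49, each resting on 1 array of one group and 3 of the other. The signal is dim: on the 8 arrays it stood 1.41 to 2.73 log2 units over the lowest signal that the scanner software called well above background.

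Probe 1 of Aim2 pointed the same way without passing the test. It read between -5.34 and -4.92 at P20 and between -5.47 and -5.26 at P200, and the groups overlapped. When all 19458 probes were tested one by one, its change was -0.31 ± 0.11 (limma adjusted p 0.104), against an adjusted p of 0.00908 for probe 2 in that fit. It was well above background on 4 P20 and 3 P200 arrays. The Aim2 call was lost with normexp background correction (log2 change -0.15, adjusted p 0.403), in the deposited value table of uncorrected signals (-0.16, adjusted p 0.496), and when probes near background were all admitted to the test (-0.48, adjusted p 0.0782). Normexp here added an offset of 50 and the value table keeps the background, and both shrink the log2 change of a dim probe. The part of this in the lost calls was not tested. No single array decided the Aim2 call: leaving out each in turn kept it.

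Nlrc4 encodes the sensor that, with NAIP proteins, responds to bacterial flagellin and type III secretion proteins. Its probe 2 read -2.24, -2.03, -2.11 and -2.11 at P20, and -2.28, -2.59, -2.54 and -2.48 at P200. The groups did not overlap, but the gap was narrow: the highest P200 array, replicate 1, was at -2.28 and the lowest P20 array, replicate 1, at -2.24. The mean went from -2.12 ± 0.08 to -2.47 ± 0.13 (SD, n = 4 each), a log2 change of -0.35 ± 0.08 (95% interval -0.54 to -0.16), or 1.28-fold lower, with a limma adjusted p of 0.0266. The arrays nearest to each other are the ones that sit in the slide row dominated by the other passage. With slide row as a block the change was -0.25 with an adjusted p of 0.0746, so the call was lost, and the within-row differences were -0.3 and -0.2.

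Probe 1 of Nlrc4 read between -3.69 and -3.18 at P20 and between -3.84 and -3.56 at P200, with a change of -0.33 ± 0.12 and a limma adjusted p of 0.133. Its size was close to that of probe 2, with a wider spread and with overlapping groups. The Nlrc4 call was also lost without P20 replicate 2, 3 or 4 (adjusted p 0.0763, 0.0759 and 0.0653) and without P200 replicate 2 or 3 (0.0702 and 0.0786). It was lost as well when the array median replaced the 75th percentile (-0.29, adjusted p 0.243), when the mean of both probes was tested (-0.34, adjusted p 0.0545), and with no filter on dim probes (-0.35, adjusted p 0.196). Over all 21 settings the estimate ran from -0.42 to -0.25, below 0 throughout, and in 10 of them it did not pass the test. As the groups did not overlap, leaving out any single array could not turn its sign.

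**Figure D2:**
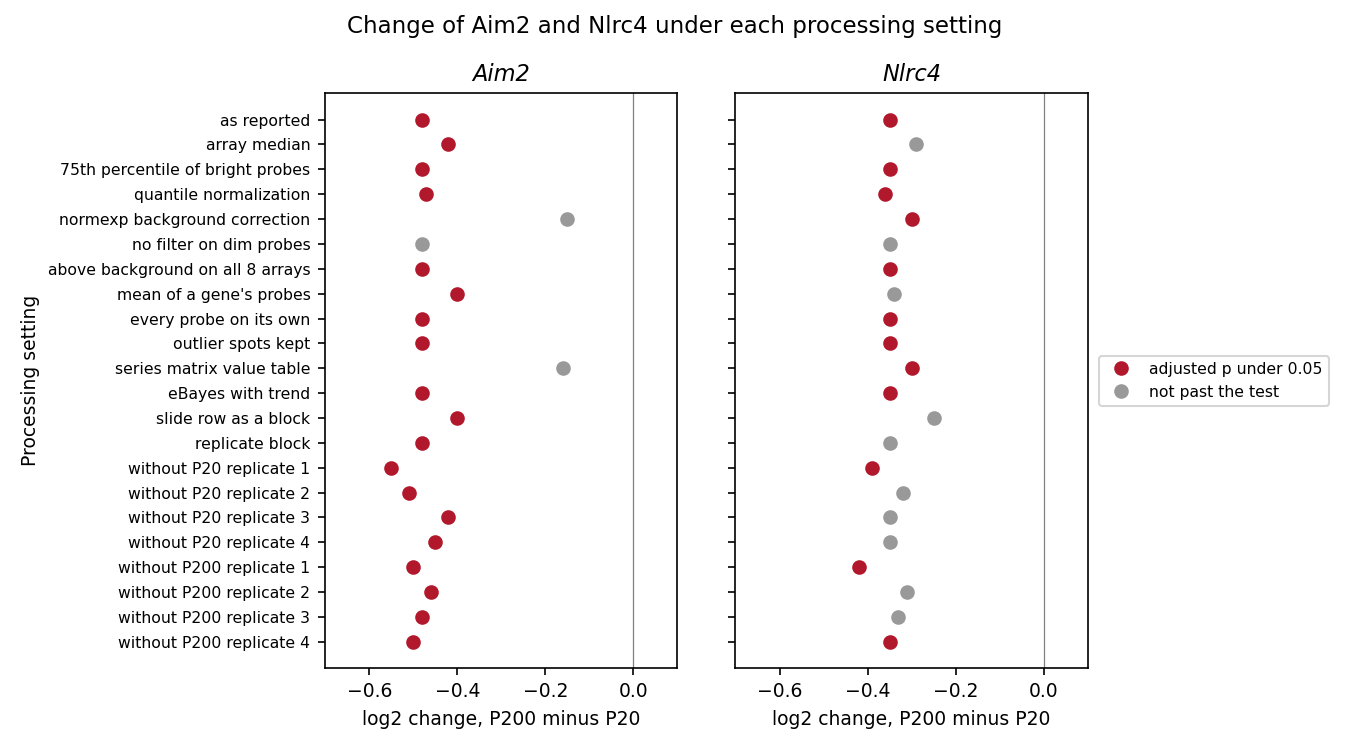
Log2 change of Aim2 (left) and Nlrc4 (right) under the reported setting and 21 others (vertical axis); red points have an adjusted p under 0.05. All points lie below 0, and 3 points for Aim2 and 10 for Nlrc4 are grey.

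Nlrp3 encodes the sensor of potassium loss, crystals and membrane damage, and its own transcription is a priming step. Its most intense probe, on chromosome 10 at 45874596 to 45874655, which the files assign to predicted transcripts, read -0.57, -0.41, -0.70 and -0.70 at P20 and -0.89, -0.69, -0.44 and -0.52 at P200. The groups overlapped widely, with the P200 arrays spread on both sides of the P20 mean. The change was -0.04 ± 0.11 with a 95% interval of -0.30 to 0.22 (limma adjusted p 0.876). Its sign turned when the array median was used (0.02), without P20 replicate 2 (0.02) and without P200 replicate 1 (0.04). With slide row as a block it was -0.13, from 0.02 within row 1 and -0.28 within row 2, and over all 21 settings it ran from -0.20 to 0.04. The other Nlrp3 probes gave -0.05 ± 0.10 and -0.17 ± 0.09 (limma adjusted p 0.836 and 0.31). In the latter, all P20 arrays (-2.48 to -2.10) lay above all P200 arrays (-2.54 to -2.49), by a margin smaller than the spread within P20.

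Nlrp1a encodes a sensor that is activated when its amino terminus is degraded, as by anthrax lethal factor in susceptible rats. Its brighter probe, on chromosome 10 at 57960422 to 57960481, read -3.01, -3.52, -3.12 and -3.12 at P20 and -3.26, -3.31, -3.43 and -3.43 at P200. P20 replicate 2 was the lowest of the 8 arrays and the other P20 arrays were the highest, so the groups overlapped through that one array. The change was -0.16 ± 0.11 (95% interval -0.42 to 0.09, limma adjusted p 0.45). Without P20 replicate 2 it was -0.27 with an adjusted p of 0.0697, and over the 21 settings it ran from -0.27 to -0.05. The dimmer probe gave -0.15 ± 0.23 (adjusted p 0.756). The files place Nlrp3 and Nlrp1a on the same chromosome.

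Nod1, the sensor of peptidoglycan fragments that carry diaminopimelic acid, had a probe on chromosome 4 at 83398827 to 83398886 far above background. It read 2.82, 2.75, 2.87 and 3.01 at P20 and 2.91, 2.92, 2.91 and 3.14 at P200. The P200 arrays were close together except replicate 4, and P20 replicate 4 was also the highest of its group, so the groups overlapped. The change was 0.11 ± 0.08 (95% interval -0.08 to 0.30, limma adjusted p 0.501). Without P200 replicate 4 it was 0.05, and over the 21 settings it ran from 0.05 to 0.17. Its second probe gave 0.16 ± 0.12 (adjusted p 0.52).

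Nod2, the sensor of muramyl dipeptide, was measured by a probe on chromosome 19 at 19662563 to 19662622. It read -3.56, -3.39, -3.30 and -3.56 at P20 and -3.20, -3.73, -3.75 and -3.43 at P200. The P200 group held both the highest and the lowest arrays. The change was -0.08 ± 0.13 (95% interval -0.38 to 0.22, limma adjusted p 0.782), and it turned to 0.07 with slide row as a block. Leaving out P200 replicate 1 took it to -0.19 and leaving out P200 replicate 3 to -0.0049. A further Nod2 probe, against predicted transcripts, was above background on 0 of the 8 arrays and was not tested.

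Pycard encodes ASC, through which NLRP3, AIM2 and, in part, NLRC4 reach caspase-1. Its probe on chromosome 1 at 187276921 to 187276980 read 0.19, 0.01, 0.09 and 0.08 at P20 and 0.23, 0.16, 0.20 and 0.24 at P200. The P200 arrays were above every P20 array but replicate 1, so the groups overlapped. The change was 0.12 ± 0.06 with a 95% interval of -0.02 to 0.25 (limma adjusted p 0.295). The difference was 0.01 within slide row 1 and 0.17 within row 2, and over the 21 settings the change ran from 0.09 to 0.18.

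Casp1 encodes the protease that inflammasomes activate, and its probe lies on chromosome 8 at 2032917 to 2032976. It read 0.50, 0.38, 0.54 and 0.53 at P20 and 0.39, 0.36, 0.37 and 0.28 at P200. All but 1 of the P20 arrays exceeded all P200 arrays: P20 replicate 2 was at 0.38 and P200 replicate 1 at 0.39. The change was -0.14 ± 0.06 (95% interval -0.28 to 0.00, limma adjusted p 0.228), and over the 21 settings it ran from -0.18 to -0.07.

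Casp4 encodes the caspase that binds cytosolic lipopolysaccharide and triggers the non-canonical inflammasome, and its probe lies 42.1 kb from that of Casp1. It read -1.32, -1.27, -0.91 and -1.12 at P20 and -1.08, -1.48, -1.51 and -1.72 at P200. P200 replicate 1 lay among the P20 arrays and the other P200 arrays lay below them. The change was -0.29 ± 0.14 (95% interval -0.62 to 0.04, limma adjusted p 0.276), and with slide row as a block it was -0.11, from -0.25 within row 1 and 0.02 within row 2. Over the 21 settings it ran from -0.41 (without P200 replicate 1, adjusted p 0.0657) to -0.11.

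**Figure D3:**
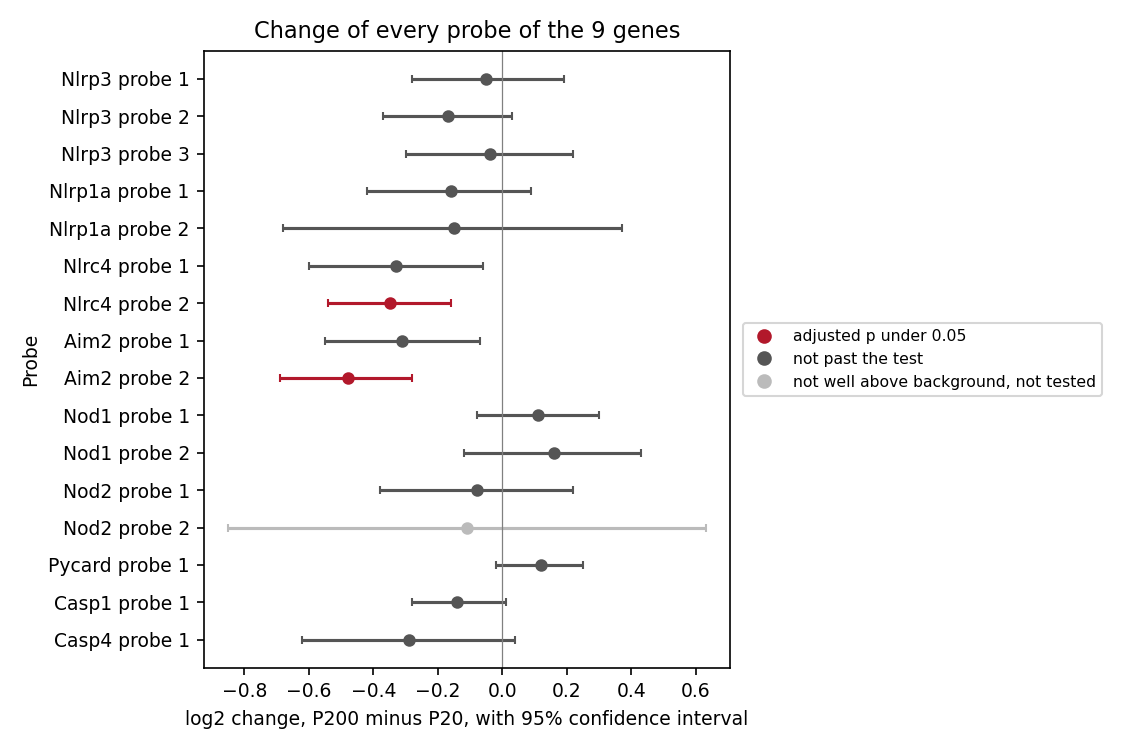
Log2 change from P20 to P200 with its 95% confidence interval for each of the 16 probes; red marks an adjusted p under 0.05 in the fit of every probe. Probe 2 of Nlrc4 and probe 2 of Aim2 are red, and dark grey probes did not pass the test. The lighter grey point, probe 2 of Nod2, was above background on no array and was not tested.

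The pairs of probes for the genes that fell gave changes of the same sign (-0.31 and -0.48 for Aim2, -0.33 and -0.35 for Nlrc4), and so did the pairs for Nod1 (0.11 and 0.16) and Nlrp1a (-0.16 and -0.15). The genes whose array profiles were most like that of Nlrc4, by the root-mean-square difference over 8 arrays among 14370 genes above background on all of them, were RT1-A1, a class I antigen-presenting gene (0.0399 log2 units), Nfkb1 (0.046) and Hdhd2 (0.0554). For Aim2 they were 2 transcripts known in the files only by identifier (ENSRNOT00000012386 and ENSRNOT00000012067, 0.0697 and 0.0833) and LOC100910801 (0.0856). The profiles include the difference between passages, so genes with a similar log2 change rank high. In the order named, the changes were -0.37, -0.31 and -0.30 for Nlrc4 and -0.48, -0.36 and -0.39 for Aim2. Whether any of these genes are regulated together was not tested.

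The rest of the pathway was taken from 7 lists with 98 genes, of which 74 could be tested. Of these, 5 rose, 11 fell and 58 did not pass the test; 25 had an unadjusted p under 0.05. Over all genes the share called was 11.6%, with 5.93% rising and 5.65% falling, and 23.7% had an unadjusted p under 0.05. The lists' median log2 change was -0.07. With slide row as a block 10 of the 16 calls were made (2 rose, 8 fell), over 1245 genes in all (8.14%). With no filter on dim probes 4 calls were made, and of the 14 called genes chosen by the naming rule Gbp5, Mnda and Sharpin passed.

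**Figure D4:**
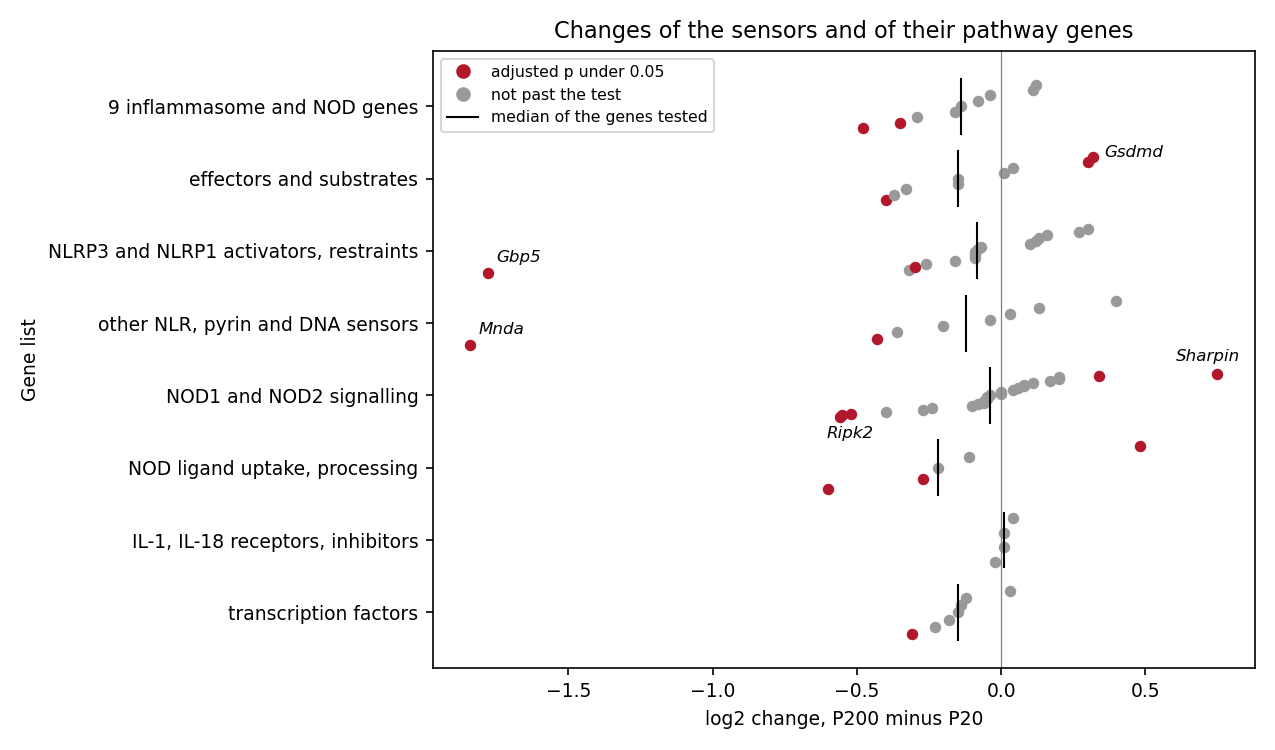
Log2 change of each tested gene in the 9 and in 7 pathway lists (vertical axis), with red points at an adjusted p under 0.05 and a line at each list's median. Gbp5 and Mnda stand apart on the left at -1.78 and -1.84, and Sharpin is the highest at 0.75.

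Among the effectors and substrates of inflammasomes, 9 of 12 genes were tested: 2 rose, 1 fell and 6 did not pass. The median was -0.15, and 11.6% of all genes tested were called. Gsdmd, which encodes the pore-forming gasdermin D, read 2.27, 2.27, 2.33 and 2.35 at P20 and 2.54, 2.55, 2.57 and 2.82 at P200. Every P200 array was above every P20 array, and replicate 4 stood above the others. Gsdmd rose by 0.32 ± 0.08 (1.24-fold, limma adjusted p 0.0322). Il18, a caspase-1 substrate, read 2.68, 2.69, 2.60 and 2.71 at P20 and 2.85, 3.05, 2.98 and 3.02 at P200, with no overlap. It rose by 0.30 ± 0.06 (1.23-fold, limma adjusted p 0.017). Il1a, an alarmin cytokine released on pyroptosis, read 4.41, 4.54, 4.48 and 4.43 at P20 and 3.90, 4.22, 4.17 and 3.97 at P200. It fell, with a change of -0.40 ± 0.09 (1.32-fold lower, adjusted p 0.0177), again without overlap.

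The other interleukin-1, Il1b, the main caspase-1 substrate, was at -0.37 ± 0.11 with a limma adjusted p of 0.0743, and its groups (4.30 to 4.79 at P20, 4.02 to 4.32 at P200) overlapped slightly. Casp12, whose probe lies 34.9 kb from that of Casp4, was at -0.33 ± 0.15 (adjusted p 0.22; -0.15 and 0.632 with slide row as a block, from -0.35 within row 1 and 0.04 within row 2), and Casp8, the initiator caspase that AIM2 and NLRC4 complexes can recruit, at -0.15 ± 0.07 (adjusted p 0.261). The calls on Gsdmd and Il18 were lost with slide row as a block (adjusted p 0.114 and 0.0765). That on Gsdmd was also lost without P20 replicate 1, 2, 3 or 4 or P200 replicate 2 or 3 (0.0522 to 0.0896), that on Il18 without P20 replicate 3 or P200 replicate 2 or 3 (0.05 to 0.0614), and that on Il1a without P20 replicate 2 or 3 (0.0552 and 0.0553). With the array median the calls on Il1a and Il18 were lost (adjusted p 0.264 and 0.12).

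Gsdmd lies on chromosome 7 at 113836932 to 113836991 among genes that rose together. Within 2 Mb on either side 32 of 73 tested genes rose (43.8%) and 2 fell, with a median of 0.31, against 5.93% of all genes that rose. The change of Gsdmd, 0.32, was close to that median. The part of this neighbourhood in the rise of Gsdmd was not tested. Around Aim2, 5 of 33 tested genes fell (15.2%) and none rose, and around Nlrc4, 1 of 16 fell, beside 5.65% of all genes.

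Genes that activate or restrain NLRP3 and NLRP1 numbered 18, with 16 tested: 2 fell, none rose and 14 did not pass. The median was -0.08, and 11.6% of all genes tested were called, close to the share here. Both genes of the list that fell encode interferon-inducible guanylate-binding proteins. Gbp5, reported to promote NLRP3 assembly, read -1.75, -2.08, -1.83 and -1.79 at P20 and -3.63, -3.81, -3.57 and -3.56 at P200, a separation many times the spread. Its change was -1.78 ± 0.09 (3.43-fold lower, limma adjusted p 3.86e-06), and it passed the test under all 21 settings. Gbp2, its neighbour on chromosome 2, which helps expose bacteria in the cytosol, went from 1.40 to 1.59 down to 1.12 to 1.37, a change of -0.30 ± 0.08 (adjusted p 0.0417). The call on Gbp2 was lost in 13 of 21 settings, among them slide row as a block (adjusted p 0.0733) and leaving out any array other than P200 replicate 3 (0.0503 to 0.121). Nek7, the kinase that licenses NLRP3, was at -0.16 ± 0.08 (adjusted p 0.263), and Txnip, a redox-linked binding partner of NLRP3, at -0.32 ± 0.19 (adjusted p 0.354). With slide row as a block Txnip was at -0.08 (adjusted p 0.864), from -0.34 within row 1 and 0.18 within row 2.

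Other NLR, pyrin and cytosolic DNA sensors numbered 21, of which 17 had a probe and 8 were tested. Of these, 2 fell and 6 did not pass (median -0.12), beside 5.65% of all genes that fell. Mnda, an interferon-inducible HIN-200 gene whose probe lies 113.7 kb from that of Aim2, read 0.13, 0.22, 0.17 and 0.14 at P20 and -2.07, -1.55, -1.24 and -1.86 at P200. The groups were far apart, and the P200 arrays varied more than the P20 arrays. The change was -1.84 ± 0.16 (3.59-fold lower, limma adjusted p 0.000108). A second Mnda probe read -3.22 to -3.10 on the P20 arrays and was not well above background on any P200 array. Against the lowest signal well above background on each P200 array it was at least 13.1-fold lower. It entered the test through its P20 arrays alone, and its measured signals had means of -3.18 at P20 and -8.18 at P200. The P200 values are readings not well above background, so no p-value is given for this probe.

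Sting1, the adaptor downstream of the DNA sensor cGAS, read -2.45, -2.74, -2.58 and -2.52 at P20 and -3.07, -3.13, -2.98 and -2.84 at P200. It fell without overlap, with a log2 change of -0.43 ± 0.09 (limma adjusted p 0.0144; not called with the array median, at 0.103, or in the value table of uncorrected signals, at 0.141). Naip5, the flagellin receptor that recruits NLRC4, was at -0.36 ± 0.15 (95% interval -0.71 to -0.02, adjusted p 0.187), and at -0.24 with slide row as a block. Nlrp1b, Nlrp4, Nlrp5, Nlrp6, Nlrp9, Nlrp12, Nlrc3, Ciita and Mefv had probes that did not reach the filter in either group.

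In the signalling list of NOD1 and NOD2 all 25 genes were tested: 2 rose, 3 fell and 20 did not pass. The median was -0.04, and 11.6% of all genes tested were called. Ripk2, the kinase through which both sensors signal, read -4.0, -3.91, -4.16 and -4.24 at P20 and -4.75, -4.42, -4.84 and -4.52 at P200. It fell (log2 change -0.56 ± 0.11, 1.47-fold lower, limma adjusted p 0.0136) with no overlap, and with slide row as a block its adjusted p was 0.0272. The call was lost with the array median (adjusted p 0.0853), with normexp (-0.24, adjusted p 0.103) and in the value table of uncorrected signals (-0.22, adjusted p 0.251). As for Aim2, normexp with its offset and the uncorrected table shrink the log2 change of a dim probe.

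The negative regulators Tnfaip3, which encodes A20, and Nfkbia, which encodes I-kappa-B alpha, are both NF-kB targets. Tnfaip3 read -2.03, -2.07, -1.91 and -1.99 at P20 and -2.58, -2.51, -2.36 and -2.78 at P200, a change of -0.55 ± 0.09 (limma adjusted p 0.00537; 0.0976 with the array median). Nfkbia, named after its values were seen to complete the 5 calls of this list, changed by -0.52 ± 0.08 (adjusted p 0.00292). All P20 arrays lay above all P200 arrays for both, as they did for 9.81% of all genes tested.

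Sharpin, a subunit of the linear ubiquitin ligase that acts on RIPK2 complexes, read 0.79, 0.84, 0.86 and 0.86 at P20 and 1.59, 1.42, 1.56 and 1.79 at P200. It rose by 0.75 ± 0.08 (1.69-fold, limma adjusted p 0.000433) and passed the test under all 21 settings. Its probe lies 560.9 kb from that of Gsdmd, so the windows around them overlap. Around Sharpin, 37 of 83 tested genes within 2 Mb rose (44.6%), with a median of 0.31, less than the change of Sharpin itself. Tab3, an adaptor of the TAK1 kinase and likewise named after its values were seen, rose by 0.34 ± 0.08 (adjusted p 0.0268; 0.102 with slide row as a block). Xiap, the ubiquitin ligase that NOD2 signalling needs, was at 0.00 ± 0.15.

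For uptake and processing of NOD ligands 5 of 6 genes were tested: 1 rose, 2 fell and 2 did not pass (median -0.22). Of all genes tested 11.6% were called. Slc15a2, a peptide transporter able to carry muramyl dipeptide, read -2.82, -2.71, -2.90 and -2.94 at P20 and -3.69, -3.49, -3.42 and -3.16 at P200. Its change was -0.60 ± 0.11 (1.51-fold lower, limma adjusted p 0.00964), and in the value table of uncorrected signals it was -0.37 and not called (adjusted p 0.1). Slc46a3, a lysosomal transporter linked to muropeptide export, read -3.07, -2.73, -2.93 and -2.93 at P20 and -2.31, -2.58, -2.47 and -2.40 at P200. It rose by 0.48 ± 0.09 (1.39-fold, adjusted p 0.00971). Nagk, the kinase that phosphorylates muramyl dipeptide for recognition by NOD2, went from 2.96 to 3.12 down to 2.73 to 2.85, a change of -0.27 ± 0.06 (adjusted p 0.0224). No groups overlapped for these 3 genes, which were named because they passed the test. Over all genes 9.81% had all P20 arrays above all P200 arrays, and 9.65% the reverse. Slc15a3, a gene of this list that did not pass (limma adjusted p 0.0793), did not overlap either. The call on Nagk was lost with slide row as a block (0.054), with the array median (-0.20, adjusted p 0.432), and without P20 replicate 1, 2 or 3 or P200 replicate 1, 2 or 3 (0.0527 to 0.0767). It was also lost when the mean of the gene's probes was tested (-0.22, limma adjusted p 0.054). A second Nagk probe, tested on its own, changed by -0.17 ± 0.07 without overlap and did not pass (limma adjusted p 0.174).

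Of the receptors and inhibitors of interleukin-1 and interleukin-18, 4 of 9 genes were tested. By limma 0 passed and 0 had an unadjusted p under 0.05, beside 11.6% and 23.7% of all genes. Their changes lay between -0.02 and 0.04. Il1rn, the secreted receptor antagonist, read 3.43, 3.24, 3.28 and 3.37 at P20 and 3.17, 3.30, 3.55 and 3.45 at P200, overlapping throughout (0.04 ± 0.09, 95% interval -0.18 to 0.25, limma adjusted p 0.865; -0.07 with slide row as a block). The receptors Il1r1, Il1r2, Il18r1 and Il18rap did not reach the filter, so a change in them was not measurable here.

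All 7 transcription factors that act on sensor genes were tested: 1 fell and 6 did not pass, beside 5.65% of all genes that fell. Their median was -0.15. Nfkb1, which encodes the p105 precursor of NF-kB p50, read 0.60, 0.73, 0.62 and 0.61 at P20 and 0.47, 0.24, 0.28 and 0.34 at P200, without overlap. Its change was -0.31 ± 0.07 (limma adjusted p 0.0216). The call was lost with slide row as a block (-0.25, adjusted p 0.0901), with the array median (-0.24, adjusted p 0.354), and without P20 replicate 2 or 3 or P200 replicate 2 or 3 (0.0602 to 0.0692). It was also lost when the mean of the gene's probes was tested (-0.27, limma adjusted p 0.0855). A second Nfkb1 probe, tested on its own, changed by -0.24 ± 0.12 with overlapping groups and did not pass (limma adjusted p 0.283). Irf1 was at 0.03 ± 0.06 (adjusted p 0.836) and Irf8 at -0.18 ± 0.10 (adjusted p 0.359).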

How the data were processed

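Cyanine-3 labelled RNA from 8 cultures was hybridised to 1-colour Agilent rat arrays. The authors scanned them and deposited Agilent Feature Extraction 11.0.1.1 output per array, per the submitters' processing notes; its processed signal is an intensity after background subtraction, per the file headers. The deposited series table held the raw median intensity of each spot (100.0% equal).

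Control and outlier spots were left out, spots of a probe averaged, and log2 values taken less the array's 75th percentile of the deposited processed intensity. A probe was tested if well above background on all 4 arrays of a group, and a gene by its probe of highest mean (84 of 45598 probes lacked a usable spot on some array). Names came from the files and, through accessions and synonyms, from RefSeq's gene table, 14899 probes keeping the file's name. The test was limma 3.58.1 (R 4.3.3), lmFit and eBayes, two-sided, Benjamini-Hochberg over all genes tested, called under 0.05, and it was tested on simulated data. Intervals and SE come from that fit, and the number of arrays limits precision.

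Members and gene lists were chosen with earlier results of these data known. All 9 genes are named, and of each list up to 3 called genes with the largest change, or else the gene with the smallest p; other named genes, and the chromosomal windows, were chosen after their values were seen. With the P200 numbers used here, deviations of same-numbered arrays correlated at 0.029, 0.135, -0.001 and 0.284. With the order of the deposited value table they correlated at 0.221, 0.065, 0.098 and -0.116. The P200 numbering is uncertain, so these values do not settle whether replicate numbers pair the arrays. Alternatives covered scaling, background correction (normexp offset 50), the filter, probe choice, outlier spots, the value table, eBayes with trend, slide row, replicate number and each array left out.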

Additional observations from a re-analysis of the deposited data

Results flagged for a closer look

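Among 48 groups of 4 arrays examined (the 9 genes and the pathway genes chosen by the naming rule, at each passage), 3 held an array far from the rest; by chance about 1 in 20 groups would. In P200, Nod1 was highest in replicate 4, at 3.14 against 2.91 to 2.92 on the others, so that this gap took 0.938 of the group's range. Gsdmd was highest in the same array, at 2.82 against 2.54 to 2.57 (0.891 of the range). That array had the lowest 75th percentile of processed signal, 978.75 against 1349.25 to 1869.1 on the others. The part of this scaling in these values was not tested. Gbp2 was highest in P200 replicate 3, at 1.37 against 1.12 to 1.14 (0.89 of the range).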

How the results depend on the processing

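The 1770 calls over all genes became 1129 with the array median (719 rose, 410 fell, beside 906 and 864), 787 with no filter on dim probes (381 and 406), and 1202 to 1688 with 1 array left out. Of the 9 genes, 2 calls became 1 with the array median, normexp, the mean of a gene's probes, the value table or slide row, 0 with no filter on dim probes, and 1 to 2 with 1 array left out (1 without P20 replicate 2, 3 or 4 or P200 replicate 2 or 3). The 16 pathway calls became 6 with the array median (3 rose, 3 fell), 4 with no filter, 10 with slide row, and 9 to 16 with 1 array left out (9 without P20 replicate 3). With no filter the median change of all genes was 0.101, and 0.066 with the array median. With the replicate block 1470 genes, 1 of the 9 (Aim2, adjusted p 0.0282, and not Nlrc4, 0.0932) and 12 pathway genes were called (not Slc46a3, 0.0538, Nagk, 0.0753, or Nfkb1, 0.0751). Whether the replicate numbers pair the arrays was not settled. Signs turned for genes that were not called: Nlrp3 to 0.02 (array median) and between -0.1 and 0.04 with 1 array left out (above 0 without P20 replicate 2, at 0.02, or P200 replicate 1), Nod2 to 0.07 (slide row), and Il1rn to -0.07 (slide row) and between -0.03 (without P200 replicate 3) and 0.1 with 1 array left out. The causes were not tested. The signs of Aim2, Nlrc4 and the 14 called pathway genes chosen by the naming rule held in all 21 settings. Their groups did not overlap, so leaving out any single array could not turn a sign. Settings such as eBayes with trend and the replicate block reuse the same values and return the same estimate. Those settings therefore say nothing about the stability of the signs. Dim probes such as those of Aim2 lie near background, which limits them.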
